A study of Mus musculus with 3 samples.

Results

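Heat shock proteins and DnaJ chaperones are the genes whose products fold, refold and move other proteins. The table of this series gave a value for 62 of them, out of 11886 genes in all. Members were taken by symbol: the Hsp families (HSP90, HSP70, HSP110, small heat shock proteins and the mitochondrial chaperonin), the J proteins of classes A, B and C, the heat shock factors Hsf1 and Hsf2, the co-chaperone Bag3 and the ER chaperone Hyou1. Of 76 protein-coding RefSeq symbols that meet this rule, the other 14 had no value in the table used here and were not analysed. Members were set apart by compartment as 33 cytosolic or nuclear, 15 of the endoplasmic reticulum (ER) and 10 mitochondrial. Hsf1, Hsf2 and Bag3 were kept as a group of 3 regulators and partners, and Dnajc22 was assigned to no compartment.

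The study measured RNA in mT3-2D-GFP, a mouse KPC pancreatic cancer line of C57BL/6 origin marked with green fluorescent protein (GFP). It was also measured in tumours formed by the line in mice, after cells with GFP had been sorted from them. One library came from the cultured line, which was grown in DMEM with heat-inactivated serum. One came from tumours in immunodeficient B6.CB17-Prkdcscid/SzJ (SCID) mice, whose T and B cells are missing while innate immune cells remain, and one from tumours in immunocompetent C57BL/6 (WT) mice. Each tumour library was a pool with equal RNA from every tumour, 5 in SCID and 6 in WT mice. Every group therefore had 1 library, the spread between tumours was not measured, and all groups derive from 1 line. No difference below has a replicate check and no p-value is given.

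All values are fold changes from the authors' deposited table, averaged over the transcripts of a gene. They were read as log2, although no source used here states the base. The table holds no level or count for any library, so depth and abundance are unknown and genes cannot be ranked by expression. The comparisons of the SCID pool and of the WT pool with the line share the library of the cultured line, and the 3 comparisons are additive. The threshold for a call was 2-fold in either direction, a log2 value of 1. Transcripts of the same gene differed with a pooled SD of 0.33 for SCID against the line, 0.31 for WT against the line and 0.22 for WT against SCID, over all genes.

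HSP70 proteins bind exposed hydrophobic stretches of client proteins in cycles driven by ATP. J proteins deliver the clients and stimulate the ATPase of HSP70, and HSP110 proteins exchange its nucleotide. HSP90 acts later on kinases, receptors and other near-folded clients, small heat shock proteins hold unfolding proteins, and the HSP60-HSP10 chaperonin encloses clients inside mitochondria. When unfolded proteins accumulate in the cytosol, HSF1 binds heat shock elements, inverted repeats of the letters GAA, and induces the stress-responsive members. Unfolded proteins in the ER act through the unfolded protein response, whose factors bind the ER stress response element in the promoters of ER chaperones. Tumour cells depend on constitutive chaperones during rapid growth, and HSP70 genes also respond to handling of tissue.

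RefSeq promoter windows (build GRCm38.p6, 250 bases before to 50 after each start) were found for 48 of the 62 members. A heat shock element of 2 units (GAANNTTC or TTCNNGAA, each its own reverse complement, so both strands are covered) lay in the windows of 14 of the 48 (29.2%), and in those of 17% of 27025 genes. The stricter 3-unit element, a 2-unit element extended by another inverted unit of GAA after 2 bases on either side, contains the 2-unit one. It lay in the windows of Hspd1, Hspe1, Hsph1 and Dnajb6, which is 8.33% of the 48, against 0.662% of all genes. The ER stress response element (CCAAT, 9 bases, CCACG, on both strands) lay in those of Hspa5, Hsp90b1 and Dnajc3, 6.25% of the 48 against 0.137% of all genes. A match describes letters only and is not evidence of binding.

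The sequences below are the stretches around these matches for members on which the results turn, 5′ to 3′ on the strand of the gene, with the matched elements in capitals. The first is the stretch before the start of Hspa1a, the member with the highest values. In Hspa1b the same 128 bases are identical, and the 250 bases before the starts of these genes are 98.8% identical. Dnaja4, Dnajb4 and Hspb1 are further cytosolic members with values above 1.5-fold in the SCID pool. Hspb6, at -0.36 in the SCID pool and -0.35 in the WT pool, also holds a 2-unit element and is not printed. Hspa1l, Hspa2, Dnajb1 and Dnajb5, also above 1.5-fold in the SCID pool, are not among the 14 with a match, and not every member had a window. Dnajb6 has transcripts that differ, and the element of Hspe1 is also in the window of the divergent gene Hspd1. It lies between the start of Hspe1 and that of the shorter Hspd1 transcript, and inside the longer one. Hspa5, Hsp90b1 and Dnajc3 are the ER members with an ER stress response element.
Hspa1a (chr17:34972193-34972320, minus strand): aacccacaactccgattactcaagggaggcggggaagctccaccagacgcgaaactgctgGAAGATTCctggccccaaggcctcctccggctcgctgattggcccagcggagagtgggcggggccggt
Dnaja4 (chr9:54699449-54699534, plus strand): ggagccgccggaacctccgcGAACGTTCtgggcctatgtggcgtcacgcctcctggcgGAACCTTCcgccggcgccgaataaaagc
Dnajb4 (chr3:152193846-152193879, minus strand): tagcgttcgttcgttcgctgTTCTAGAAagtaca
Hspb1 (chr5:135887782-135887849, plus strand): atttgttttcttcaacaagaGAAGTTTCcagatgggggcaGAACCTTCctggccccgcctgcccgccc
Dnajb6 (chr5:29735832-29735884, plus strand): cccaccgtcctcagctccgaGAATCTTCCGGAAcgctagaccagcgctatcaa
Hspe1 (chr1:55088054-55088081, plus strand): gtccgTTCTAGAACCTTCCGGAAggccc
Hspa5 (chr2:34772005-34772063, plus strand): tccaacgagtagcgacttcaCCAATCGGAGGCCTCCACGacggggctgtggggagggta
Hsp90b1 (chr10:86705513-86705571, minus strand): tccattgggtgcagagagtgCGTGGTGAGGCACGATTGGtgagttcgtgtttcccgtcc
Dnajc3 (chr14:118937807-118937865, plus strand): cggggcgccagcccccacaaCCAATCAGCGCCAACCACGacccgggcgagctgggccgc

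Against the cultured line, a small set of members, led by the inducible HSP70 genes, stood higher in both tumour pools, and most other chaperone genes were near or below the level of culture. In the SCID pool 4 of 62 members (6.45%) were higher by 2-fold, beside 3.65% of all genes, and 0 were lower, beside 2.62%. In the WT pool 4 members (6.45%) were higher, beside 4.12% of all genes, and 0 were lower, beside 2.03%. At 1.5-fold the SCID pool had 10 members higher (16.1%, all genes 11%) and 5 lower (8.06%, all genes 9.43%). The WT pool had 7 higher (11.3%, all genes 11.3%) and 4 lower (6.45%, all genes 8.36%). These shares lie near those of all genes, so the members as a set did not stand apart. Above 0 were 28 of 62 in each comparison with the line (45.2%), beside 48.3% of all genes for the SCID pool and 48.6% for the WT pool. The median member was at -0.04 in the SCID pool and -0.06 in the WT pool, and the median gene at -0.02 and -0.01.

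**Figure D1:**
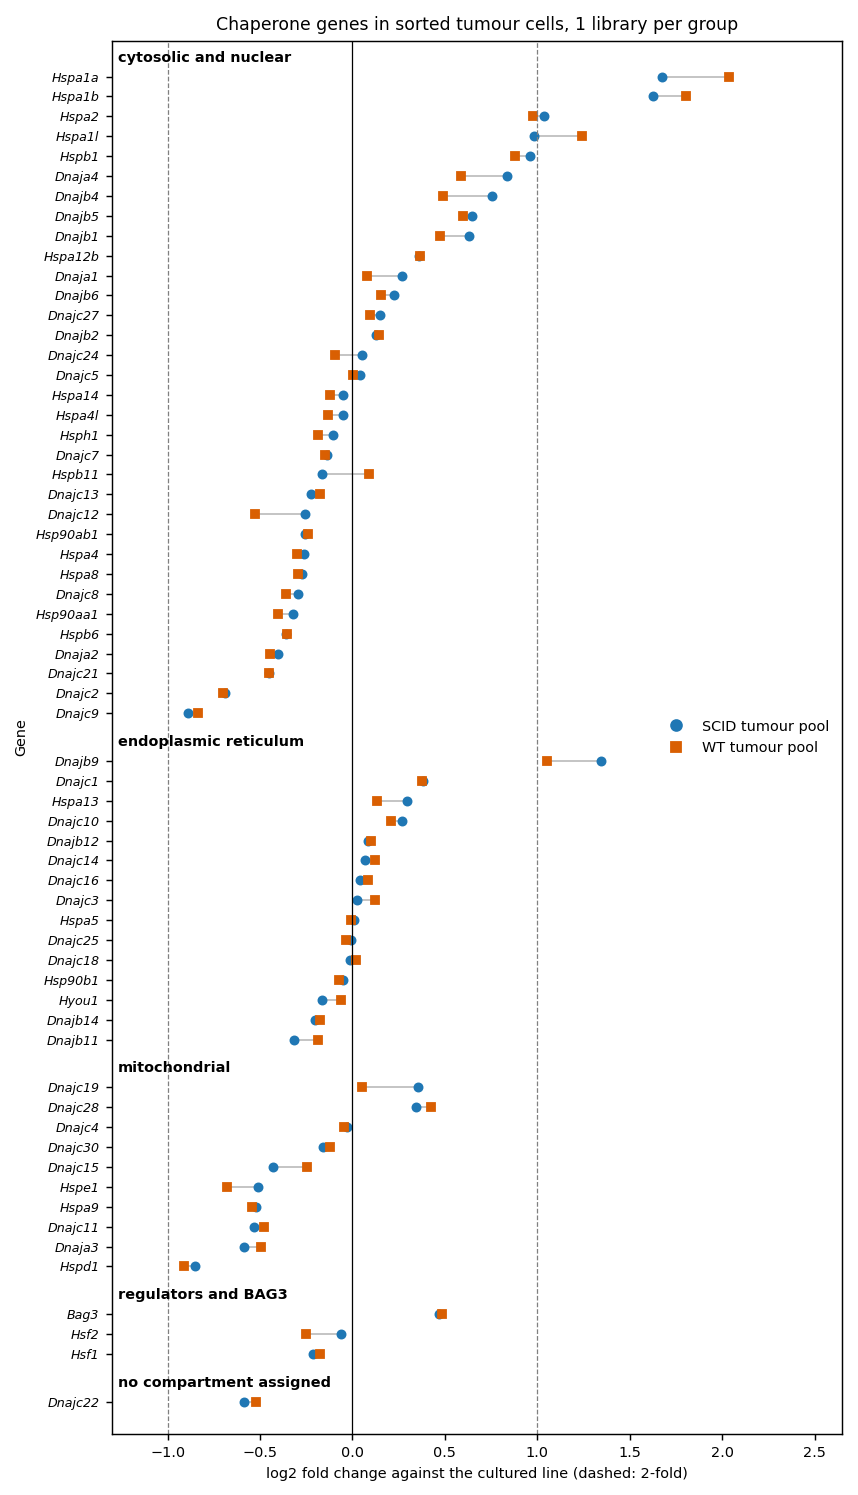
Log2 fold change against the cultured line (horizontal axis) for each of the 62 members (vertical axis), grouped by compartment and ordered by the SCID value, with circles for the SCID pool, squares for the WT pool and dashed lines at 2-fold. Each point is 1 library against 1 library; Hspa1a and Hspa1b are the highest and Dnajc9 and Hspd1 the lowest.

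The inducible HSP70 genes were the highest members. Hspa1a, the stress-inducible cytosolic HSP70, was at 1.67 in the SCID pool (3.19-fold) and at 2.04 in the WT pool (4.10-fold), ranks 62 and 23 from the top of 11886 genes. In the WT pool it was the 1 member past 4-fold (1.61% of members, all genes 0.219%), while in the SCID pool 0 members and 0.135% of all genes were. Hspa1b, its near copy, was at 1.62 (3.08-fold) and 1.80 (3.49-fold), ranks 78 and 67. The pair thus held the highest values in both pools, with Dnajb9 of the ER next in the SCID pool at 1.35, a gap smaller than the transcript SD of 0.33. Hspa1a lies on chromosome 17 from 34969359 to 34972156 and Hspa1b from 34956429 to 34959238, both on the minus strand and 10120 bases apart. Their open reading frames are 99.4% identical, and 52.7% of the stretches of 75 bases (the read length) in the Hspa1a transcript also occur in that of Hspa1b. Reads could therefore be split between the genes unseen in the table, and their separate values are uncertain.

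Hspa1l, an HSP70 gene known for expression in testis, starts 546 bases from Hspa1a on the opposite strand (chromosome 17, 34972703 to 34979228). It was at 0.98 in the SCID pool (1.97-fold, just under the threshold) and at 1.24 in the WT pool (2.36-fold). Of the 75-base stretches of Hspa1a, 5.88% occur in Hspa1l, so its value may hold reads of its neighbour. The share of such reads is unknown because no counts were used. Hspa2, a testis-enriched HSP70 on chromosome 12 (76404370 to 76406936), was at 1.04 in the SCID pool (2.05-fold) and 0.98 in the WT pool (1.97-fold), on either side of the threshold with nearly the same value. It shares 0 of those stretches with Hspa1a.

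Hspa8 and the HSP90 genes did not follow Hspa1a and Hspa1b. Hspa8, the constitutive cytosolic HSP70 (HSC70), was at -0.27 in the SCID pool and -0.29 in the WT pool. Hsp90aa1 was at -0.32 and -0.40, and Hsp90ab1 at -0.26 and -0.24, the alpha and beta forms of cytosolic HSP90. All of these lay below 0 and within 2-fold, as did the ER form Hsp90b1. The HSP110 nucleotide exchange factors were also below 0 in both pools, with Hspa4 at -0.26 and -0.30, Hspa4l at -0.05 and -0.13 and Hsph1 at -0.10 and -0.19. Hsph1, a heat-inducible gene, has a coding transcript at 0.10 and another at -0.31 in the SCID pool. Hspa14, a ribosome-associated HSP70, was at -0.05 and -0.12 on the gene mean, which joins transcripts that differ. Its coding NM_015765 was at -0.57 and -0.58, its coding NM_001355397 at 0.11 and -0.18 and its non-coding NR_103465 at 0.31 and 0.40. Hspa12b, a distant HSP70 relative, was at 0.36 and 0.37.

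Small heat shock proteins differed among themselves. Hspb1 (HSP25 of the mouse), a stress-inducible holdase that binds the cytoskeleton, was at 0.96 in the SCID pool (1.94-fold) and 0.88 in the WT pool (1.84-fold), close to the threshold. Hspb6, a small heat shock protein of muscle, was at -0.36 and -0.35. Hspb11, whose product is a subunit of intraflagellar transport, was at -0.17 and 0.09. Hspb1 was thus the 1 small heat shock gene above 1.5-fold.

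Class B J proteins are partners of HSP70 in refolding. Of 9 class B genes, ER members included, 7 (77.8%) were above 0 in each pool, beside 48.3% of all genes for the SCID pool and 48.6% for the WT pool, with a median of 0.22 in the SCID pool and 0.16 in the WT pool. Dnajb4 was at 0.76 (1.69-fold) and 0.49. Dnajb5 was at 0.65 and 0.60, and Dnajb1, the main heat-inducible HSP40, at 0.63 (1.55-fold) and 0.48 (1.39-fold). Among class A genes Dnaja4 was at 0.83 (1.78-fold) in the SCID pool and 0.58 in the WT pool, and Dnaja2 at -0.40 and -0.44. None of these cytosolic J proteins reached 2-fold on the gene mean. Dnajb2, Dnajb6 and Dnaja1 lay between 0.08 and 0.27 in both pools.

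The 24 class C genes, a varied class with a J domain and otherwise unrelated parts, had medians of -0.02 and -0.07 and none past 2-fold. Dnajc9, a histone chaperone of replicating cells, was the lowest member in the SCID pool at -0.89 (0.541 of culture) and was at -0.83 in the WT pool. Dnajc2 (MPP11), the J protein of the ribosome-associated complex, was at -0.69 and -0.70. Dnajc21, a factor of ribosome assembly, was at -0.45 in both pools. These were the lowest cytosolic genes of the SCID pool. Dnajc12, which assists aromatic amino acid hydroxylases, was at -0.26 in the SCID pool and at -0.53, the third lowest cytosolic value, in the WT pool. Dnajc8, a splicing-associated gene, was at -0.30 and -0.36, and Dnajc22, which had no compartment, at -0.59 and -0.52. The other cytosolic class C genes (Dnajc5, Dnajc7, Dnajc13, Dnajc24 and Dnajc27) lay between -0.23 and 0.15.

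Many ER chaperones were close to the level of culture. Of 15 members 8 (53.3%) lay within 0.1 of 0 in the SCID pool and 6 (40%) in the WT pool, beside 18.9% and 19.5% of all genes. Within 2-fold were 14 (93.3%) in each pool, near the 93.7% and 93.8% of all genes, and the median was 0.02 in the SCID pool and 0.08 in the WT pool. Dnajb9 (ERdj4, a J protein induced by the unfolded protein response that binds IRE1), on chromosome 12 from 44205897 to 44210068, was at 1.35 in the SCID pool (2.54-fold) and 1.05 in the WT pool (2.07-fold). The major ER chaperones lay close to 0. Hspa5 (BiP), the ER HSP70 and central sensor partner, was at 0.01 and -0.01 on the gene mean. That mean joins a transcript at 0.24 and 0.31 with another at -0.22 and -0.33. Hsp90b1 (GRP94) was at -0.05 and -0.08. Hyou1 (GRP170), the nucleotide exchange factor of BiP, was at -0.16 and -0.06. Dnajb11 (ERdj3) was the lowest ER member at -0.31 and -0.19, next to Dnajb14 at -0.20 and -0.18. Dnajc3 (P58IPK) was at 0.02 and 0.12. The 3 genes whose printed promoters carry the ER stress response element, Hspa5, Hsp90b1 and Dnajc3, therefore lay between -0.08 and 0.12 on the gene mean. The window of Dnajb9 held no match.

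The other ER members were as small. Dnajc1, an ER membrane J protein, was at 0.38 in both pools, and Dnajc10 (ERdj5), a disulfide reductase, at 0.27 and 0.21. Hspa13, a microsomal HSP70, was at 0.29 and 0.13. Dnajb12, Dnajc14, Dnajc16, Dnajc18 and Dnajc25 lay between -0.03 and 0.12.

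Mitochondrial chaperones were mostly lower than in culture, all within 2-fold. Of 10 members 8 were below 0 in each pool, beside 51.7% of all genes for the SCID pool and 51.4% for the WT pool, with a median of -0.47 in the SCID pool and -0.36 in the WT pool, beside medians of -0.02 and -0.01 over all genes. Hspd1 (HSP60), the chaperonin ring, was the lowest at -0.85 (0.554 of culture) and -0.91 (0.532 of culture). Hspe1 (HSP10), its lid, was at -0.51 and -0.68. Hspa9 (mortalin), the mitochondrial HSP70 that also drives protein import, was at -0.52 and -0.55. Its J protein partner Dnaja3 (TID1) was at -0.59 and -0.49. The chaperonin, the HSP70 and its J protein thus stood on the same side in both pools. Dnajc11, of the cristae-organising complex, was at -0.53 and -0.48, and Dnajc15, an import J protein, at -0.43 and -0.24. Dnajc30 and Dnajc4 lay between -0.16 and -0.03. Above culture were Dnajc19 (the import motor J protein) at 0.35 and 0.05 and Dnajc28 at 0.34 and 0.43. The Dnajc28 transcript NM_138664 was at 0.67 and 0.87, and NM_001099738 at 0.02 and -0.01.

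Hspd1 and Hspe1 are divergent genes on chromosome 1 (Hspd1 from 55077833 to 55088243 on the minus strand, Hspe1 from 55088148 to 55091317 on the plus strand). The longer Hspd1 transcript overlaps Hspe1 by 96 bases. The library kit is stranded per the labels, but whether strand was used in counting is not given in the sources used here. Of the 4 members with the 3-unit element, Hspd1, Hspe1 and Hsph1 were below 0 in both pools and Dnajb6 above, on the gene mean. On the median transcript, 1 of these 4 was above 0 in the SCID pool and 0 in the WT pool. Of the 14 with the 2-unit element, which include these 4, 10 (71.4%) were above 0 in each pool. Of all 62 members, among them these 14 and members without a window, 45.2% were. With the median transcript in place of the gene mean, 9 of the 14 were above 0 in the SCID pool and 8 in the WT pool. Hspa1a and Hspa1b, 98.8% identical over the 250 bases before their starts, count separately among the 14. This tally was made after the values were seen.

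Regulators all lay within 2-fold of culture, as did 93.7% of all genes for the SCID pool and 93.8% for the WT pool. Hsf1, the main heat shock factor, was at -0.21 and -0.18, and Hsf2 at -0.06 and -0.25. Bag3, a partner of HSP70 in selective autophagy that HSF1 induces, was at 0.47 and 0.48. These are RNA values, and the activity of HSF1 is set mostly by its protein state.

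Transcripts of the same gene could be compared in the 16 members with more than 1. Dnaja1, a class A J protein of the cytosol, had the widest spread: its coding transcript NM_001164671 was at 1.13 in the SCID pool and 1.02 in the WT pool, NM_008298 at -0.28 and -0.31 and NM_001164672 at -0.04 and -0.48. Its gene mean therefore describes none of the transcripts, and with the median transcript in its place the WT value was -0.31. Dnajb6, an inhibitor of aggregation, had NM_001037941 at 0.88 in the SCID pool and 0.93 in the WT pool, while its other transcripts lay between -0.13 and 0.06. NM_001037941 ends at 29757968 on chromosome 5, ahead of the others, which end at 29767101 or 29786478. One transcript of each of these genes thus stood near 2-fold above culture, with the rest at or below it.

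Dnajb1 was above 0 on both transcripts, with NM_001308227 at 0.99 in the SCID pool and 0.79 in the WT pool and NM_018808 at 0.27 and 0.16. Hspa5 had NM_022310 at 0.24 and 0.31 and NM_001163434 at -0.22 and -0.33, with the same start and end, so its gene mean near 0 joins values of opposite sign. The 7 transcripts of Hsf1 ran from -0.66 to 0.48 in the SCID pool, and from -0.36 to 0.18 in the WT pool. Hspd1 at -0.83 to -0.88 and Dnaja3 at -0.58 to -0.59 were nearly the same on each transcript in the SCID pool. Transcripts that share most of their exons share reads, so a difference between them also reflects how reads were assigned, which the table does not show.

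**Figure D2:**
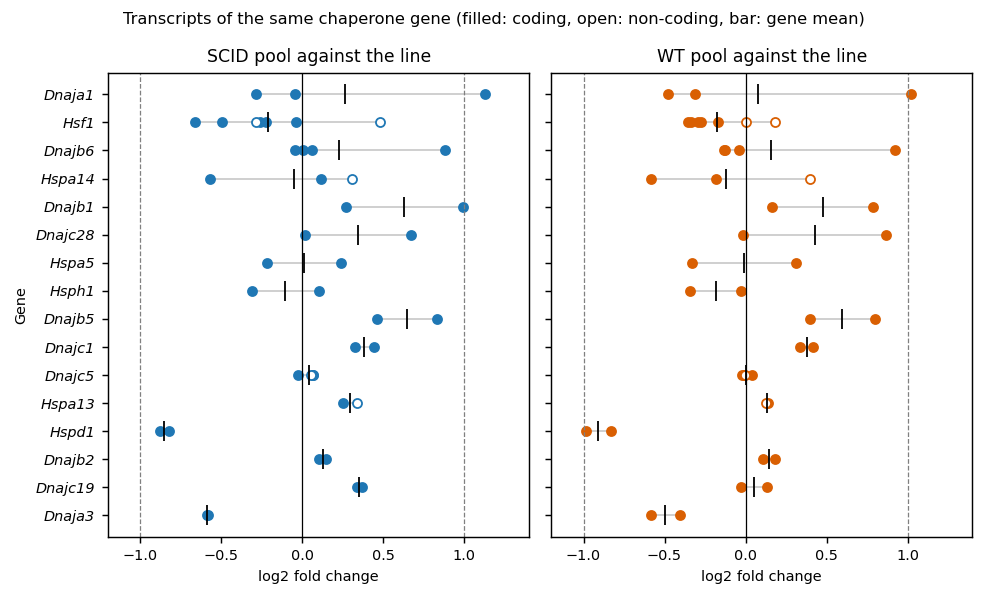
Log2 fold change against the cultured line (horizontal axes; SCID pool left, WT pool right) for each transcript of the 16 members with more than 1, filled for coding and open for non-coding, with a vertical bar at the gene mean and dashed lines at 2-fold. One Dnaja1 transcript (1.13 and 1.02) and one Dnajb6 transcript (0.88 and 0.93) stand apart from the others of their gene.

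Partner genes outside the Hsp and Dnaj names were counted from lists. The list of co-chaperones of cytosolic HSP70 and HSP90 also holds related genes that are not such co-chaperones, among them Hspbap1, Hsbp1 and Ier5. Its genes were mostly below culture, with medians of -0.25 and -0.28. Below 0 were 20 of 23 measured in the SCID pool (87%) and 19 in the WT pool (82.6%), beside 51.7% and 51.4% of all genes. In each pool 1 was higher and 0 lower by 2-fold. Within 2-fold were thus 95.7%, near the 93.7% and 93.8% of all genes. Fkbp4, an HSP90 immunophilin, was at -0.68 and -0.71, Stip1 (HOP), which joins HSP70 to HSP90, at -0.57 in both pools, and Ahsa1, the activator of the HSP90 ATPase, at -0.52 and -0.51. Hspbap1 was the lowest in the SCID pool at -0.84 and was at -0.70 in the WT pool. Ier5, an immediate-early gene that acts on HSF1, was the 1 past the threshold, 2.30-fold and 2.28-fold above culture, and Bag5 followed at log2 values of 0.11 and 0.15. The HSP90 co-chaperones thus lay on the same side as Hsp90aa1 and Hsp90ab1.

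The CCT chaperonin, which folds actin and tubulin, and the prefoldin that feeds it had 13 of 14 genes below 0 in each pool. That is 92.9%, beside 51.7% and 51.4% of all genes. Medians were -0.41 and -0.46, and 0 genes passed 2-fold, while 93.7% and 93.8% of all genes lay within it. The subunit Cct7 was at -0.61 and -0.62, Cct3 was at -0.59 in the WT pool, and Pfdn6 was at -0.61 and -0.51. Pfdn5 was at 0.13 and 0.24, and Vbp1, a prefoldin subunit, at -0.03 and -0.43. Mitochondrial chaperones and proteases outside the member set had 11 of 13 below 0 in each pool (84.6%), beside those same shares of all genes. Their medians were -0.24 and -0.17. Among them Clpp, a matrix protease, was at -0.60 and -0.54, Grpel1, the nucleotide exchange factor of Hspa9, at -0.32 in both pools, and Trap1, the mitochondrial HSP90, at -0.32 and -0.29, while Yme1l1, an inner membrane protease, was at 0.16 and 0.00 and Hscb, a J protein of iron-sulfur cluster assembly, at 0.09 in the WT pool.

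ER folding and unfolded protein response genes had 26 of 26 measured and medians of 0.05 and 0.07. In each pool 2 were higher and 0 lower by 2-fold. Within 2-fold were thus 92.3%, near the 93.7% and 93.8% of all genes. Serpinh1 (HSP47), the collagen chaperone, was at 2.22 (4.64-fold) and 1.94 (3.83-fold), and Ppp1r15a (GADD34), a phosphatase subunit of the stress response, at 1.33 in both pools. Ddit3 (CHOP) was at 0.97 and 0.84, Ern1 (IRE1) at 0.77 and 0.90 and Xbp1 at 0.48 and 0.24. The lectin chaperones Calr at -0.14 and -0.17 and Canx at 0.05 and -0.09 stayed near culture, as did the disulfide isomerases Pdia3, Pdia4, Pdia6 and P4hb, between -0.10 and 0.10. Trib3 at -0.56 and -0.38 and Sdf2l1, a BiP cofactor, at -0.40 and -0.17 were the lowest in the SCID pool, and Atf4 was at -0.33 in the WT pool.

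**Figure D3:**
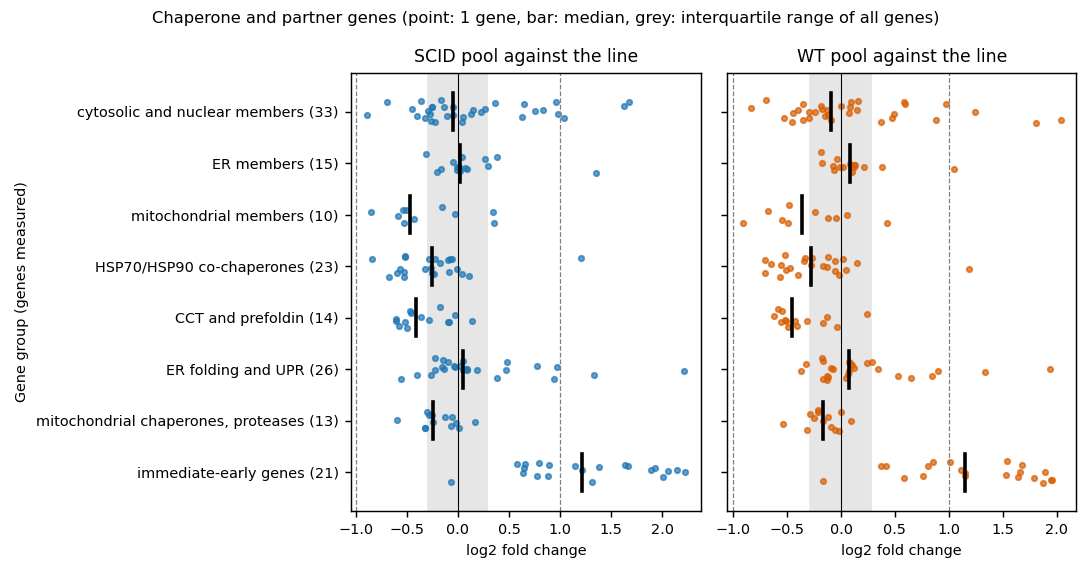
Log2 fold change against the cultured line (horizontal axes; SCID pool left, WT pool right) for member and partner genes by group, 1 point per gene, with black bars at the medians, grey bands at the interquartile range of all genes and dashed lines at 2-fold. The mitochondrial members (medians -0.47 and -0.36) and the CCT and prefoldin genes (-0.41 and -0.46) lie to the left, and the immediate-early genes (1.21 and 1.15) to the right.

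Cells from the tumours had passed through dissociation and sorting, a step that the labels do not give for the culture. Most immediate-early and dissociation genes also stood above culture. Of 21 measured, 12 were higher by 2-fold in the SCID pool and 14 in the WT pool, beside 3.65% and 4.12% of all genes, with medians of 1.21 and 1.15, among them Atf3 at 2.22 and 1.95 and Fosb at 2.15 and 1.96. Their part in the values of Hspa1a, Hspa1b, Hspb1 and Dnajb1 was not tested. Most measured markers of macrophages, fibroblasts and endothelial cells also stood above culture in the tumour pools. Of 13 macrophage markers 4 were measured (Apoe, Cd14, Cd68 and Mrc1), from -0.06 to 1.02 in the SCID pool and from 0.77 to 2.77 in the WT pool, with medians of 0.70 and 1.73. Of 10 fibroblast markers 3 were measured, from 0.63 to 2.61 in the SCID pool and from 1.04 to 1.90 in the WT pool, with Col1a1 at 2.61 and 1.90. Of 8 endothelial markers 3 were measured, with medians of 1.12 and 1.09. Of 6 T cell markers 2 were measured, Foxp3 and Tcf7, with medians of 0.23 and 0.22. These medians are smaller than the SD between transcripts, while Tcf7 by itself, at 0.36 and 0.35, was above it. Foxp3 was at 0.10 and 0.09. The SCID values came from mice that lack T cells. Ptprc, the general leukocyte marker, had no value, and the levels of all these markers are unknown. All 7 epithelial markers had values, from Epcam at 1.25 and 1.59 to Krt7 at -1.18 and -0.99. The part of host cells in the chaperone values was not tested, and fewer cells of a type and less RNA per cell cannot be told apart in such pools.

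Between the tumour pools the chaperone genes differed little. In WT against SCID 0 of 62 members were higher or lower by 2-fold, beside 0.303% and 0.0168% of all genes, and 0 passed 1.5-fold, beside 1.1% and 0.177%. Of the 62, 26 (41.9%) were above 0, beside 51.5% of all genes, and the values ran from -0.30 to 0.36 with an SD between genes of 0.13, against 0.17 for all genes. The median was -0.04 for cytosolic members, 0.02 for ER members and 0.01 for mitochondrial members. With 1 pool per host this does not show that the hosts leave these genes alike, since the spread between tumours was not measured.

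The highest member was Hspa1a at 0.36, followed by Hspa1l at 0.26, Hspb11 at 0.25, Dnajc15 at 0.18 and Hspa1b at 0.18. The 3 genes of the Hspa1 cluster were thus all higher in the WT pool. They lie within the major histocompatibility region of chromosome 17. Of 23 other genes measured within 200 kilobases of the cluster, a window chosen after the values were seen, 20 were above 0 in WT against SCID, beside 51.5% of all genes, with a median of 0.10 (0 past 2-fold). The highest was C4a, a complement gene, at 0.68, with Cfb (complement factor B) at 0.46, and the lowest was 1110038B12Rik at -0.41. Macrophage markers had a median of 1.04 in this comparison, and their part in these values was not tested. Transcript values in WT against SCID also rose with GC content (Spearman correlation 0.32). The values of the neighbouring genes were not corrected for this, and its part was not tested.

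The lowest members were Dnajc19 and Dnajb9 at -0.30, Dnajc12 and Dnajb4 at -0.27 and Dnaja4 at -0.25. Hsf2 was at -0.19, Dnaja1 at -0.19, Hspe1 at -0.17, Hspa13 at -0.16 and Dnajb1 at -0.15. The cytosolic J proteins Dnaja4, Dnajb1 and Dnajb4 were thus lower in the WT pool while the cytosolic HSP70 genes Hspa1a and Hspa1b were higher, and the transcript SD in this comparison was 0.22. With the part that followed GC content and transcript length taken out, Dnajb4 was at -0.14, Dnajb9 at -0.20, Dnajc19 at -0.18, Hspa1b at 0.12, Dnaja1 at -0.10, Hspa13 at -0.07 and Hsf2 at -0.10. Dnajc12 was then at -0.22, Dnaja4 at -0.26, Dnajb1 at -0.19 and Dnajc15 at 0.24, so not all values moved towards 0. Hspa1a and Hspa1l were still above 0. Immediate-early genes had a median of -0.11 in this comparison, with 6 of 21 above 0. The constitutive and ER chaperones Hspa8 at -0.02, Hsp90ab1 at 0.02, Hspa5 at -0.02, Hsp90b1 at -0.02 and Hspa9 at -0.02 lay within 0.1 of 0 in WT against SCID, as did 45 of 62 members (72.6%) and 60.5% of all genes.

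**Figure D4:**
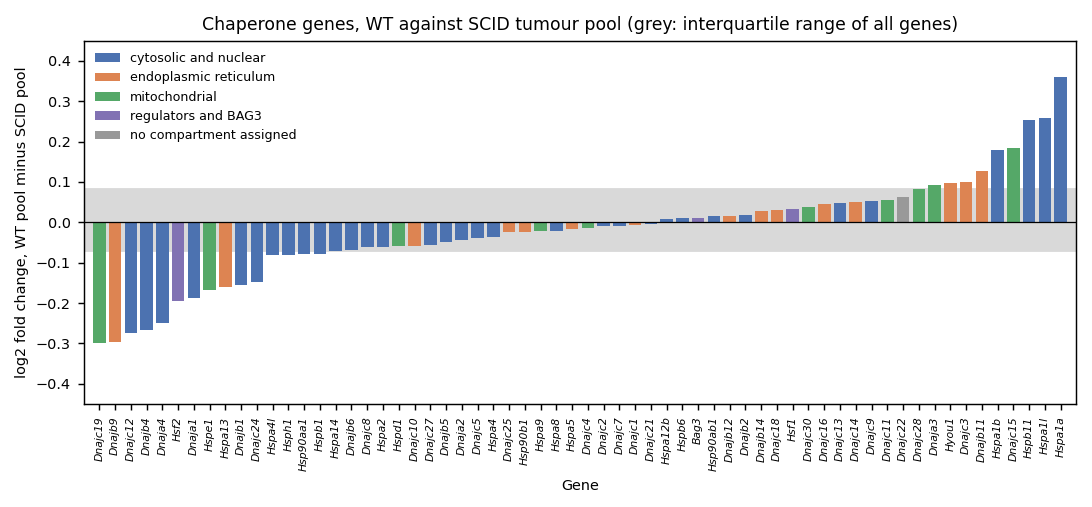
Log2 fold change of the WT pool minus the SCID pool (vertical axis) for the 62 members in rising order (horizontal axis), coloured by compartment, with a grey band for the interquartile range of all genes. Values run from -0.30 (Dnajc19) to 0.36 (Hspa1a), and no member reaches 1.5-fold.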

How the data were processed

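RNA was measured in 3 libraries, 1 per group, made with a stranded polyA kit, read as pairs of 75 bases to a stated mean of 40M reads, per the labels' protocols. The deposited table gives fold changes per transcript for the 3 comparisons, which were read as log2 from their range and because one is the first minus the second in 17910 of 17910 transcripts (within 1e-12). That column was multiplied by -1, so that positive means higher in WT. BWA, Partek, R 3.5.1, DESeq2 1.20.0 and mm9 are listed, with no role, in the submitters' processing notes. Member coordinates in the table match GRCm38.p6 RefSeq genes in place (57 of 62 within 1000 bases), so that build is used here. Counts and depth per library were not used here.

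Each gene value is the mean over its transcripts (89 transcripts for the 62 members). No test was possible with 1 library per group, so genes are called by size alone, at 2-fold. Members and lists were chosen with earlier results of these data known. Named were members past 2-fold, the 4 highest and 4 lowest of each compartment and comparison, fixed well-known members and the extremes of the partner lists. Further names, the 2-unit element, the shared 75-base stretches and the genes near Hspa1a were chosen after values were seen. Promoters came from RefSeq and open reading frames are the longest in reference transcripts. Alternatives were the median or farthest transcript, coding or single transcripts only, centring, removal of a GC and length trend, leaving out the farthest member, and thresholds of 1.5-fold and 4-fold. Python 3.11.15, pandas 2.3.3, numpy 2.4.6 and Biopython 1.88 were used, and the code was tested on simulated data.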

Additional observations from a re-analysis of the deposited data

Results flagged for a closer look

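Of 62 members, 4 had opposite signs in the comparisons of the SCID pool and of the WT pool with the cultured line, and the difference was not tested because each group has 1 library. Hspb11 was at -0.166 in the SCID pool and 0.0871 in the WT pool. Dnajc24, which takes part in diphthamide synthesis, was at 0.0535 and -0.0949. Dnajc18 was at -0.0113 and 0.0184, and Hspa5 at 0.00902 and -0.00789. All of these values are smaller than the SD between transcripts of a gene (0.33 and 0.31).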

How the results depend on the processing

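The counts of members depended on the threshold. At 1.5-fold 10 members were higher and 5 lower in the SCID pool, and 7 higher and 4 lower in the WT pool, in place of 4 and 0 in each at 2-fold. At 4-fold 0 members were higher in the SCID pool and 1 in the WT pool. The other alternatives kept all 6 counts within 1.5 times. Removing the GC and length trend gave 6 members higher by 2-fold in the SCID pool. Each compartment median moved by less than the SD between transcripts, but some changed sign. With single-transcript genes only, the median of Hsf1, Hsf2 and Bag3 as a group went from -0.06 to 0.21 in the SCID pool. In the WT pool it went from -0.18 to 0.11. The ER median in the SCID pool went from 0.02 to -0.01 with the trend removed. Dnaja1 in the WT pool went from 0.08 to -0.31 with the median transcript. Removing a trend in GC content and length changed the sign of 18 of 61 members in WT against SCID, the largest at 0.08 before removal, of 3 in the SCID pool and of 6 in the WT pool. That trend accounted for 4.59%, 6.03% and 7.01% of the variance between transcripts in SCID against the line, WT against the line and WT against SCID. No paired analysis was possible because each group has 1 library. Depth per gene is unknown, so no value has a counting error, and values of genes with few reads cannot be told from those with many.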
